A study of Mus musculus with 2 samples.

Results

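The MYC family and G1 cell cycle genes examined here were Myc, Mycn, Ccnd1, Ccnd2, Ccnd3, Ccne1, Cdk4 and Cdk6, 8 of the 22380 protein-coding genes of the annotation, and their open chromatin was followed in enteroids with intact or inactivated Taf4 by ATAC-seq. ATAC-seq marks open DNA by the insertion of a transposase, and enteroids are epithelial organoids grown from crypts, here from the ileum of 4-month-old mice of mixed C57Bl6/129sv strain. Control enteroids were Taf4 lox/lox and Taf4-inactivated enteroids Taf4 lox/lox::VilCreERT2, in which the Villin promoter restricts a tamoxifen-activated Cre recombinase to the intestinal epithelium. Both received 1 µM 4-hydroxytamoxifen (4-OHT) for 3 days, so floxed alleles and drug were common to both groups while the Cre transgene was not, and the transgene and the loss of Taf4 cannot be told apart. The labels also mention solvent alone for control experiments, but the titles of both libraries name the tamoxifen treatment. There was 1 library per genotype, so no test between genotypes could be made, and each difference below describes a pair of libraries.

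MYC is a transcription factor that binds DNA with its partner MAX, and in intestinal crypts its gene is a classical target of Wnt and β-catenin signalling, which maintains proliferating progenitors. MYC and mitogenic signals raise the D-type cyclins, which activate the kinases CDK4 and CDK6 to phosphorylate the retinoblastoma protein RB and release E2F factors, after which cyclin E with CDK2 drives entry into S phase. Taf4 encodes a subunit of TFIID, the general factor that recognises core promoters for RNA polymerase II.

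Promoter peaks were those within 1 kb of any annotated start site of a gene, and distal peaks were the others within 200 kb of the gene that lay nearer to one of its start sites than to that of any other protein-coding gene. The 8 genes held 82 of the 90445 control peaks (9 promoter and 73 distal) and 57 of the 71282 Taf4-inactivated peaks (10 promoter and 47 distal). All coordinates are on the mouse assembly mm9. The deposited fold enrichment of a peak is its signal over the local background of the same library and shares no scale between libraries, with medians of 2.03 in the control and 2.45 in the Taf4-inactivated list. Peaks were therefore compared by percentile, the share of peaks in the same list with a lower fold, and peaks in the top 10% of a list are called strong. A rise or fall below is a shift of this rank between the libraries, with no test, and in such bulk samples fewer cells of a type and less open chromatin per cell cannot be told apart.

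The background level in reads could be solved from the fold and p of each peak. Its 5th percentile over the narrowest 10% of peaks was 12.1 reads in the control and 7.35 in the Taf4-inactivated library, an estimated depth of 60.5% of control. The targeted gene, annotated as Taf4a, had a promoter peak at percentile 74.7 in the control and 58.7 in the Taf4-inactivated list, which does not show whether the floxed exons remained. All 8 epithelial marker genes, among them Vil1 and Cdx2, had promoter peaks in both lists, and none of the 4 immune markers had one in either. Of 9 endothelial, mesenchymal and neuronal markers, 5 had promoter peaks in both lists, 2 in the control list only and 2 in neither.

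The promoter sequences below are the 250 bases before the start site in the promoter peak, read from the NCBIM37 (mm9) reference on the strand of the gene. They are shown for the genes whose promoter rank differed most between libraries and for Myc and Ccne1. Capitals mark exact matches, on either strand, to CACGTG (the E-box bound by MYC and MAX), TTTCCCGC or TTTGGCGC (E2F), CTTTGAT (TCF/LEF, the DNA-binding partners of β-catenin), TATAAA (the box bound by TFIID), CCAAT (the site of NF-Y) and GGGCGG (the site of SP and KLF factors, SP/KLF below), none of which contains another. No member promoter matched TGANTCA (for AP-1), CAAAGTCCA (for HNF4), AGATAA (for factors of the GATA family), TGACGTCA (the cyclic AMP response element) or the CTCF motif.
Cdk4 promoter, chr10:126500340-126500589, plus strand: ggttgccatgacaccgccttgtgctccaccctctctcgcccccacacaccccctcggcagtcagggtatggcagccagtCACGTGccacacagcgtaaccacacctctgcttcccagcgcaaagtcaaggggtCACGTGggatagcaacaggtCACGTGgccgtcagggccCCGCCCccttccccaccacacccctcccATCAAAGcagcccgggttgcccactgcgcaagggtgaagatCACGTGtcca
Mycn promoter, chr12:12948721-12948970, minus strand: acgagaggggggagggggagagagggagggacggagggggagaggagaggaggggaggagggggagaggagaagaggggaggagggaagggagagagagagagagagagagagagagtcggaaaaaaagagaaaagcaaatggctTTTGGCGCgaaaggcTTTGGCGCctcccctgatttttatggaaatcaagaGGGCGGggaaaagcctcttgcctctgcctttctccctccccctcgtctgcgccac
Cdk6 promoter, chr5:3343643-3343892, plus strand: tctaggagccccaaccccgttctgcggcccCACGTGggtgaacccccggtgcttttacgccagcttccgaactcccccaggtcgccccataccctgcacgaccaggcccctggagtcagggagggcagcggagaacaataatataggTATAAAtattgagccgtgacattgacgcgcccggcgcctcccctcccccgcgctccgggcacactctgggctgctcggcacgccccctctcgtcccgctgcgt
Ccnd3 promoter, chr17:47730166-47730415, plus strand: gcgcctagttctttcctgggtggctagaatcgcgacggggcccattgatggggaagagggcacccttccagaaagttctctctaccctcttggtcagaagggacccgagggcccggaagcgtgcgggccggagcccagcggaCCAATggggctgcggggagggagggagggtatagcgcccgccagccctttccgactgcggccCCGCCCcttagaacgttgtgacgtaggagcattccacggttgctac
Ccne1 promoter, chr7:38892554-38892803, minus strand: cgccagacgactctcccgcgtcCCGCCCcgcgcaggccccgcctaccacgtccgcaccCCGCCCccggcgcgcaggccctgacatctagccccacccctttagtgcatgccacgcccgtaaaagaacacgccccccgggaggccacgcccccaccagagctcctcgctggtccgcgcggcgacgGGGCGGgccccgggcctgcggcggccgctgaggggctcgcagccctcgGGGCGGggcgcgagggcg
Myc promoter, chr15:61816696-61816945, plus strand: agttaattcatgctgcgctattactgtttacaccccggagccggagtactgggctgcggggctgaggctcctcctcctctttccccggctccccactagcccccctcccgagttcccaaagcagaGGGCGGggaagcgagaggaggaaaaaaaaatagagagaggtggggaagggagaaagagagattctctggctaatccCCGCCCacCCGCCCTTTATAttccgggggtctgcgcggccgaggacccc

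The Cdk4 promoter held 4 CACGTG E-boxes, whereas 6.52% of the 22375 coding promoters of the same length held any and 4 promoters (0.0179%) held 4 or more. The windows of the other genes lay before their outermost annotated start site, with or without a peak there. The shares and the GC median over all promoters therefore include closed promoters, unlike those of the 8 genes. The Mycn promoter held TTTGGCGC, an E2F pattern, 2 times, against 1.56% of promoters with any E2F match and 9 promoters (0.0402%) with 2 or more. The Cdk6 promoter had 1 E-box and 1 TATA match, and the Myc promoter 1 TATA and 3 SP/KLF matches. A TATA match was held by 12.3% of all promoters, and 3 or more SP/KLF matches by 10.8%. The Ccnd1 promoter, like that of Cdk4, had 1 TCF/LEF match, which 3.05% of all promoters held. SP/KLF matches occurred in 6 of the 8 promoters and in 39.6% of all. The Ccne1 promoter had 4 of them, where 5.5% of all promoters held 4 or more. Its GC content was 78.8% against a median of 54% over all promoters. No pattern was found in the Ccnd2 window. A match describes the letters of the reference and is neither a measured binding site nor a cause.

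All 8 genes had a promoter peak in both lists, as did 62.7% of protein-coding genes, while 5.7% had one in the control list only and 2.9% in the Taf4-inactivated list only. No other coding gene had a start site within 1 kb of these peaks. By fold the promoters were weak: 1 of 8, that of Ccne1, was strong in the control list and none was after inactivation, against 41.7% and 32.1% of coding promoters with a peak in the respective lists. Ranked by fold, 4 promoters stood higher and 4 lower after inactivation. Over all 13229 paired coding promoters the median difference was −2.75 points, with quartiles of −10.4 and 2.09, so more of them ranked lower than higher. Among the 8 genes, 2 shifts of 25 points or more were upward, at Ccnd3 and Cdk4, and 2 were downward, at Mycn and Cdk6. Of all paired coding promoters 5.47% moved up and 8.6% moved down by as much. The median coding promoter with a peak stood at percentile 86.5 in the control list, too high to rise by 25 points. Ccnd3 and Cdk4 started far lower, so the share of all promoters is not matched to them in starting rank.

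The upward shifts depended on the value ranked. Ranked by fold among peaks of similar width, in deciles of width, Ccnd3 (28.9 points) and Cdk4 (29.6) still rose and Mycn (−34.0) and Cdk6 (−36.8) still fell by 25 points or more, against 4.92% and 10.9% of paired coding promoters. Ranked by −log10 p, none of the 8 rose and 1, Mycn, fell by 25 points or more, against 2.33% and 8.99% of paired coding promoters. The mean pileup, the number of reads stacked over a peak, was also solved from fold and p, as an approximation because both are averages over the peak. Solved reads are not scaled for depth, estimated as 60.5% of control after inactivation, so they are not on a common scale between libraries. Ranked by pileup, 0 members rose and 0 fell by 25 points or more, against 2.3% and 6.16% of paired coding promoters.

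Pileup also gave these promoters a different place in the lists. In the control list all 8 were in the top 10% by pileup, where 43.2% of coding promoters were, and in the Taf4-inactivated list 4 were (Myc, Ccnd3, Ccne1 and Cdk4), where 38.6% were. The solved background under all 8 control promoter peaks, between 21.0 and 32.2 reads, was above the median of 16.6 reads over all promoter peaks of coding genes. Except at Ccne1 and Cdk6, their control fold was below the median of the list beside a high pileup. By pileup percentile all 8 promoters stood lower after inactivation, as did 62.2% of paired coding promoters, with differences from −0.23 points at Myc to −18.0 points at Mycn.

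**Figure D1:**
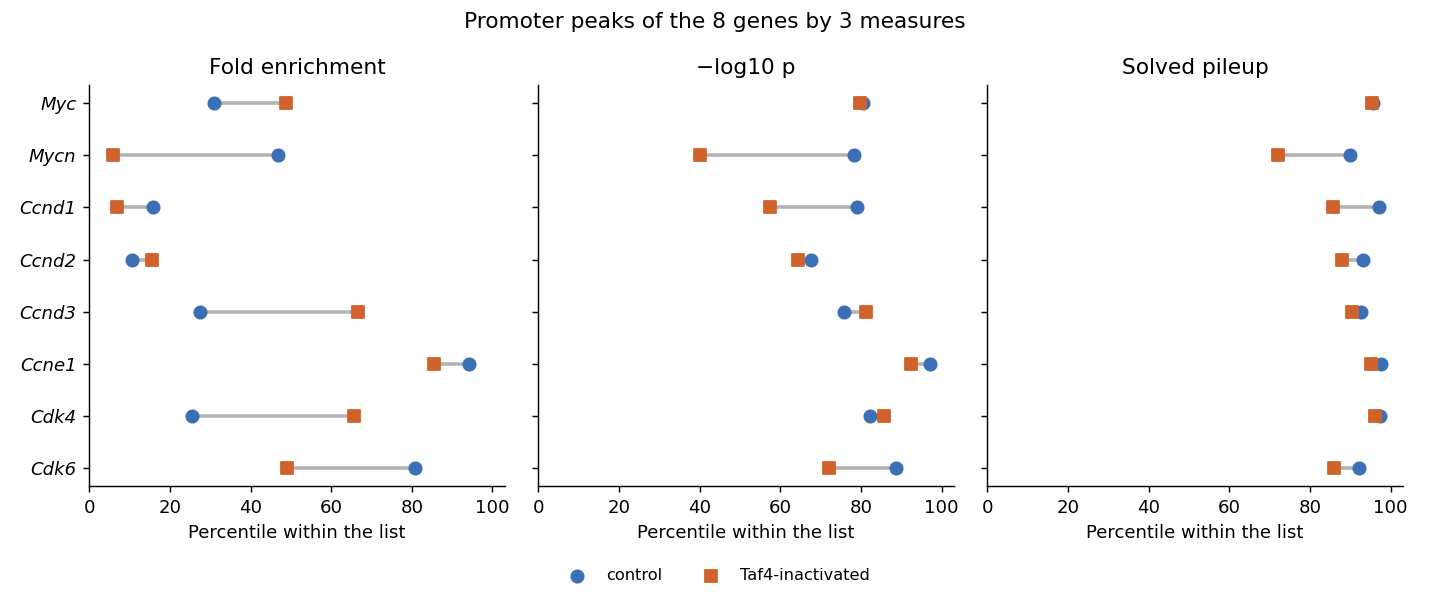
Percentile of the compared promoter peak of each of the 8 genes within the control list (circles) and the Taf4-inactivated list (squares), by fold enrichment, by −log10 p and by solved pileup, 1 library per genotype. Cdk4 and Ccnd3 stood far to the right after inactivation by fold (65.6 and 66.7) but close to control by the other measures, whereas Mycn stood to the left of control by all 3.

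Among the MYC genes, Myc (ENSMUSG00000022346.8, chr15:61816946-61821929, plus strand) encodes the family member of proliferating crypt cells. Its control promoter peak, chr15:61815920-61819805, was 3886 bp wide and held all 5 annotated start sites, with a fold of 1.94 at percentile 31.0. After inactivation the same stretch carried 2 peaks, one of 2418 bp over 3 start sites at percentile 36.4 and one of 1237 bp over the other 2 at percentile 48.8, the one compared. The Myc promoter thus ranked 17.7 points higher by fold, but with a difference of −0.76 points by −log10 p. Its solved pileup was 56.1 reads in control and 58.5 after inactivation, not scaled for depth. With the wider of both peaks the rise by fold was 5.38 points.

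Mycn (ENSMUSG00000037169.8, chr12:12942902-12948720, minus strand) encodes N-MYC, the paralogue best known from embryonic and neural progenitors. Its promoter peak was of nearly the same extent in both libraries, 3148 and 3184 bp with 3137 bp shared, and held all 3 start sites. Fold was 2.01 at percentile 46.8 in control and 2.03 at percentile 5.81 after inactivation, a difference of −41.0 points that put it at percentile 3.06 of the differences of all paired coding promoters. The rank of the Mycn promoter fell by 38.1 points by −log10 p, dropped by 23.6 points among promoter peaks only and dropped by 18.0 points by pileup, for which it lay at percentile 10.3 of all differences. Its solved pileup was 47.1 reads in control and 31.6 after inactivation, beside backgrounds of 22.9 and 15.0 reads, none of them scaled for depth.

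Among the D-type cyclins, which activate CDK4 and CDK6, Ccnd1 (ENSMUSG00000070348.4, chr7:152115836-152125774, minus strand) had the narrowest compared promoter peaks, 629 bp in control and 266 bp after inactivation. Their folds of 1.86 and 2.05 lay at percentiles 15.8 and 6.96. The Ccnd1 promoter ranked lower by each of these measures, with differences of −8.81 points by fold, −21.6 by −log10 p and −11.6 by pileup.

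Ccnd2 (ENSMUSG00000000184.9, chr6:127075797-127101066, minus strand) had a promoter peak of 3150 bp in control and 1982 bp after inactivation. Its folds of 1.82 and 2.15 lay at percentiles 10.7 and 15.5. The direction was not stable, with a difference of 4.87 points by fold, −3.11 by −log10 p and −5.13 by pileup.

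Ccnd3 (ENSMUSG00000034165.8, chr17:47642000-47736632, plus strand) had 2 annotated start sites, nearly the length of the gene apart, and a peak at each in both lists. The internal start site had the higher fold, with peaks of 2831 bp in control and 1681 bp after inactivation, at folds of 1.93 and 2.73 and percentiles 27.5 and 66.7. This rise of 39.2 points lay at percentile 97.4 of all paired promoters, whatever their starting rank. However, by −log10 p the rise was 5.47 points, and by pileup the rank fell by 2.16 points. The peak at the outer start site, 244 bp in control and 250 bp after inactivation, was weak by fold at percentiles 4.77 and 13.1. The control peak at the internal start site also overlapped a separate 255-bp Taf4-inactivated peak, chr17:47732755-47733009, which by distance counts as distal.

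Ccne1 (ENSMUSG00000002068.10, chr7:38883003-38892553, minus strand) encodes cyclin E1, the partner of CDK2. It had the promoter with the highest fold of the 8 in both lists, 2.83 at percentile 94.3 in control and 3.41 at percentile 85.6 after inactivation. Its peak was of similar extent, 1566 and 1589 bp with 1513 bp shared. The differences of −8.69 points by fold, −4.57 by −log10 p and −2.59 by pileup lay at percentiles 29.0, 40.2 and 41.4 of the differences of all paired promoters.

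Cdk4 (ENSMUSG00000006728.6, chr10:126500590-126504976, plus strand) encodes the kinase partner of the D-type cyclins. Its promoter peak had nearly the same edges in both libraries, 1268 bp in control and 1249 bp after inactivation with all 1249 bp shared, and held 8 of 9 start sites. Fold was 1.92 at percentile 25.5 in control and 2.70 at percentile 65.6 after inactivation. This difference of 40.1 points lay at percentile 97.5 of all paired promoters, whatever their starting rank. The solved pileup was 61.2 and 60.4 reads, beside solved backgrounds of 31.4 and 21.7 reads. These reads are not scaled for depth, estimated as 60.5% of control after inactivation, so similar reads do not show equal openness. In rank by pileup the Cdk4 promoter differed by −1.33 points after inactivation. The part of the local background in the fold of this promoter was not tested.

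Cdk6 (ENSMUSG00000040274.5, chr5:3343893-3523218, plus strand) encodes the other kinase partner of the D-type cyclins. Its promoter peak was the widest after inactivation, 3417 bp in control and 3477 bp after inactivation, with all 3417 bp of the control peak shared. Folds of 2.31 and 2.44 lay at percentiles 80.9 and 49.1, a difference of −31.8 points. The difference was −16.7 points by −log10 p, −26.3 among promoter peaks only and −6.19 by pileup, so Cdk6 and Cdk4 differed in direction by fold and by −log10 p but not by pileup.

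The density of distal peaks varied among the 8 genes. Over the stretches nearest to the 8 genes there were 5.72 distal peaks per 100 kb in the control and 3.68 in the Taf4-inactivated list, against 3.33 and 2.54 over all coding genes. By gene, Ccne1 was the densest (11.6 and 8.15 per 100 kb). Cdk6 (1.89 and 1.51) and Cdk4, without a distal peak, stood below the value of all coding genes in both lists. Mycn (2.36) and Ccnd2 (1.61) stood below it after inactivation only. That value pools the peaks and stretches of all coding genes, and the share of single genes above it was not computed. Of the 73 control distal peaks, 38 had no partner, a peak of the other list overlapping by at least 1 bp (52.1%, exact Clopper-Pearson 95% CI 40.0 to 63.9), as did 60.4% of the distal control peaks of all coding genes. Of the 47 Taf4-inactivated distal peaks, 11 had no partner (23.4%, CI 12.3 to 38.0), against 47.8% of all. These values depended on the overlap and the threshold. Requiring an overlap of 50% of both peaks, 75.3% of control and 61.7% of Taf4-inactivated member peaks had no partner, against 77.9% and 71.1% of all. With a −log10 q of at least 2 in both lists, 30 control and 28 Taf4-inactivated member peaks remained, of which 36.7% and 28.6% had no partner, against 53.5% and 55.5% of all. Intervals cover counting error only, and the peaks of a gene share their neighbourhood and library.

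Distal peaks without a partner were weaker and narrower than those with one, as over all coding genes. In control their median percentile by fold was 36.0 and their median width 467 bp, against 68.2 and 776 bp for those with a partner, where all coding genes had 38.4 and 438 bp without and 58.6 and 646 bp with one. After inactivation the medians were 22.5 and 487 bp without and 62.3 and 668 bp with a partner, where all coding genes had 36.8 and 351 bp without and 52.3 and 546 bp with one. Strong distal peaks numbered 7 in the control and 6 in the Taf4-inactivated list, where 4.52% and 5.34% of all distal peaks of coding genes were strong, and all of them belonged to Myc or Cdk6 and had a partner. The highest peak without a partner near each gene stood between percentiles 41.6 (Mycn) and 81.5 (Ccne1) in control and between 9.38 (Ccnd2) and 68.7 (Cdk6) after inactivation.

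**Figure D2:**
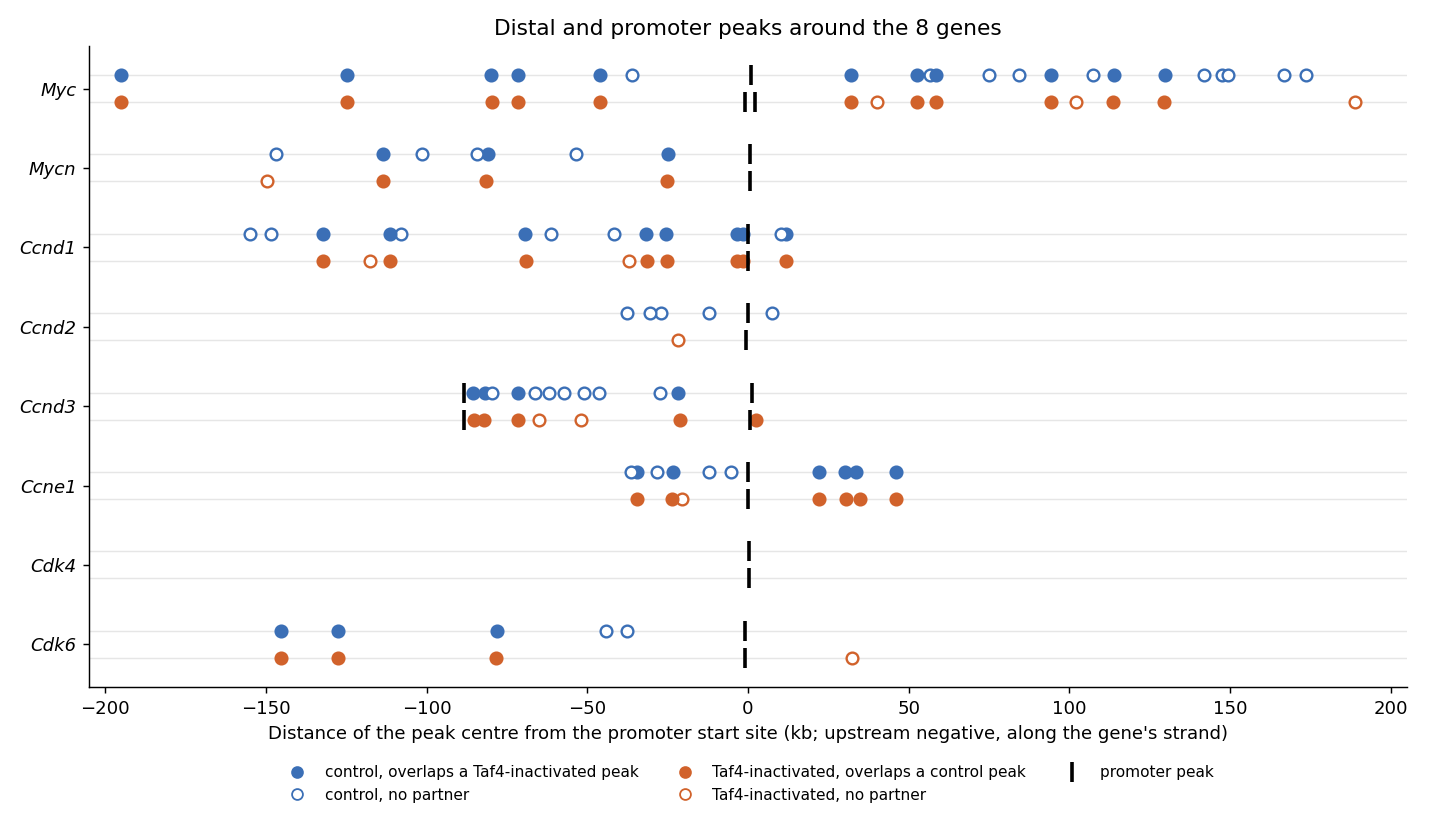
Position of each promoter peak (bar) and distal peak (circle) around the 8 genes, as the distance in kb of the peak centre from the start site of the compared promoter peak, along the strand of the gene, with the control library above the Taf4-inactivated library for each gene. Filled circles have an overlapping peak in the other list and open circles have none. Myc had the most distal peaks (21 and 14), Cdk4 had none, and none of those of Ccnd2 was filled.

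The Myc neighbourhood, 405.0 kb of sequence nearer to Myc than to any other coding start site, held 21 distal peaks in control and 14 after inactivation. They formed 11 overlapping pairs, none of which shifted by 25 points or more. Most of these pairs stood too high in the control list to rise by 25 points. Every paired Myc peak stood at percentile 60.0 or higher in both lists, while those without a partner lay between percentiles 14.9 and 78.8 in control and between 25.7 and 56.9 after inactivation. Of the 21 control peaks, 13 had their midpoint in introns of Pvt1, the long noncoding RNA gene downstream of Myc, and 8 were intergenic. Of the 14 Taf4-inactivated peaks 6 were in Pvt1 introns.

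The strongest Myc pair lay about 71 kb upstream, at chr15:61745028-61745732 in control and chr15:61744973-61745636 after inactivation. Its folds were 3.60 and 5.21, at percentile 99.3 in both lists. Another upstream pair, 194450 bp from the start site in control, went from a fold of 3.40 at percentile 98.6 to 3.63 at percentile 89.2. The pair 45699 bp upstream went from percentile 89.3 to 97.5. The largest rise of a Myc pair, 20.2 points, was in a Pvt1 intron 127029 bp downstream, from percentile 68.2 to 88.4, and the largest fall, a difference of −12.4 points, 29812 bp downstream, from 93.6 to 81.2.

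**Figure D3:**
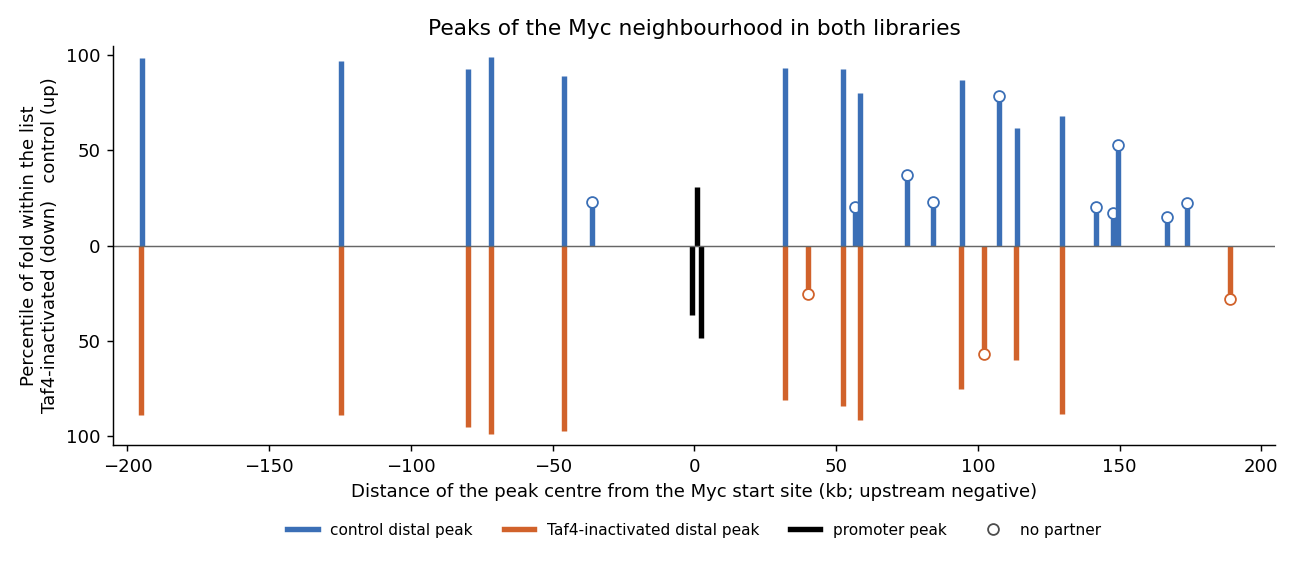
Percentile of fold of each peak near Myc, upward for the control and downward for the Taf4-inactivated library, against its distance in kb from the Myc start site (upstream negative). Black bars are promoter peaks and open circles mark distal peaks without a partner. The 11 paired distal peaks stand between percentiles 60.0 and 99.3 on both sides, above the promoter peaks at 31.0, 36.4 and 48.8.

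The central 300 bases of the distal regions that carried these results are shown next, from the plus strand of NCBIM37 (mm9), with capitals for exact matches to all patterns named above. They are the strongest pairs of Myc, Cdk6 and Ccnd3 and the pairs near Ccnd1 with the largest rise and the largest fall in rank. None of these windows overlapped an annotated exon.
Myc, upstream pair with the highest fold, chr15:61745183-61745482: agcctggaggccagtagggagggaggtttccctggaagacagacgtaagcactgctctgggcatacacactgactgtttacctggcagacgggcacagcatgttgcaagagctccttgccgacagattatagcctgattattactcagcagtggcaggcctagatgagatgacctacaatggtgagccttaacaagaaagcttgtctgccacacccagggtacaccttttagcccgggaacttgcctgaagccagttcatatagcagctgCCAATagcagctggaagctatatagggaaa
Cdk6, upstream pair with the highest fold, chr5:3198379-3198678: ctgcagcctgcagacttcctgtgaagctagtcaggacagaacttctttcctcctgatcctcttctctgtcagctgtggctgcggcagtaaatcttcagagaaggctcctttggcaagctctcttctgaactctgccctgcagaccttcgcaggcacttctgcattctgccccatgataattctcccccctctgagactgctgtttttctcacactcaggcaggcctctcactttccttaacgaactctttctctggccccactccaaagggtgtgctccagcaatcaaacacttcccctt
Ccnd3, intronic pair with the highest fold, chr17:47648188-47648487: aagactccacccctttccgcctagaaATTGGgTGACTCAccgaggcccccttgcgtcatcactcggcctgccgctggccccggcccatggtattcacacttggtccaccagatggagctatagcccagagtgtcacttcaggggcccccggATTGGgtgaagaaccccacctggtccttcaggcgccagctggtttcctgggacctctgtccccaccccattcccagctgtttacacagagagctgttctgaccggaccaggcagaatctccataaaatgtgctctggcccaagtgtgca
Ccnd1, upstream pair with the largest rise, chr7:152129066-152129365: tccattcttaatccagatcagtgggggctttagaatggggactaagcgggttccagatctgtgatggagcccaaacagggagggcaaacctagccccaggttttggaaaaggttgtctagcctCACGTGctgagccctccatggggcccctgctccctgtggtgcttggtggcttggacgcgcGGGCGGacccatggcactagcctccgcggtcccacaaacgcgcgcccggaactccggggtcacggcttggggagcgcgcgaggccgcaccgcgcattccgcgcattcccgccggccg
Ccnd1, upstream pair with the largest fall, chr7:152257830-152258129: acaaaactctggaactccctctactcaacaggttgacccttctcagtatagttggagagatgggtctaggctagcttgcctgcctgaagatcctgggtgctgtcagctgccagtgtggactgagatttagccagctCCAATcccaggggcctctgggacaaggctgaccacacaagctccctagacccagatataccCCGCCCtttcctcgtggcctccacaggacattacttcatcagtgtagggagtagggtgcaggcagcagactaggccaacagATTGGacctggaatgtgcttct

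The Myc window held 1 CCAAT match, the Ccnd3 window 1 AP-1 and 2 CCAAT matches, the rising Ccnd1 window 1 E-box and 1 SP/KLF match, and the falling one 2 CCAAT and 1 SP/KLF matches, while none was found in the Cdk6 window. Over all distal peaks of the 8 genes, cut to their central 300 bases, SP/KLF matches occurred in 14 of 73 control and 10 of 47 Taf4-inactivated windows, and in 9.31% and 10.02% of the windows of all coding genes. AP-1 matches occurred in 7 of 73 and 6 of 47, where 10.5% and 14.1% of all windows held one. E-boxes occurred in 6 of 73 and 5 of 47, where 5.29% and 5.42% of all windows held one, and TCF/LEF matches in 3 of 73 and 1 of 47, where 3.82% and 4.76% did. CCAAT matches, present in 30.4% and 30.8% of all windows, occurred in 21 of 73 and 15 of 47.

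Mycn had 7 distal peaks in control and 4 after inactivation, all intergenic and upstream. Its 3 pairs all ranked lower after inactivation, as did 56.7% of all distal pairs of coding genes, and none was strong. The pair with the highest fold, 112964 bp upstream in control, went from a fold of 2.09 at percentile 60.3 to 2.38 at percentile 43.9. The largest shift was at the pair 80531 bp upstream, from percentile 54.1 to 11.4, where the peaks overlapped by 59 bp only. The Mycn promoter and all of its distal pairs thus shifted in the same direction by fold and by −log10 p. By pileup the pair 24817 bp upstream differed by 2.49 points, opposite in sign to the rest.

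Ccnd1 had 14 control and 10 Taf4-inactivated distal peaks with 8 pairs, and the widest spread of differences of the 8 genes. The pair 2784 bp upstream of its start site went from a fold of 1.74 at percentile 3.34 to 2.54 at percentile 56.8, a rise of 53.5 points by fold and 39.8 by −log10 p but 0.56 by pileup. The pair 131848 bp upstream went from a fold of 2.37 at percentile 83.6 to 2.14 at percentile 15.2, with differences of −68.5 points by fold, −62.2 by −log10 p and −41.5 by pileup. Another Ccnd1 pair, 68217 bp upstream, rose by 30.3 points by fold but fell by 18.3 points by pileup, its peak being 2269 bp wide in control and 291 bp after inactivation. The Ccnd1 pair with the highest fold, 30936 bp upstream, stood at percentiles 86.2 and 76.0.

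The fall at the farther Ccnd1 pair was thus the same in direction by all 3 measures, and was the largest of all 35 pairs. Toward the other side of Ccnd1, 1 pair lay in an intron of the neighbouring gene Oraov1, at percentiles 25.7 and 7.25.

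Ccnd2 had 5 distal peaks in control and 1 after inactivation, and none overlapped. All were intronic, 1 of the control peaks in Ccnd2 itself and the others in 9330179D12Rik. The control peak with the highest fold, 26855 bp upstream, stood at percentile 70.8, and the Taf4-inactivated peak, 21689 bp upstream, at percentile 9.38.

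All distal peaks of Ccnd3, 11 in control and 7 after inactivation, lay in its own introns between and beyond its start sites. The pair with the highest fold, 6012 bp inside the outer start site, went from a fold of 2.20 at percentile 72.5 to 2.97 at percentile 75.4. Another pair, 21306 bp upstream of the internal start site, went from percentile 59.3 to 15.6, with differences of −43.6 points by fold, −45.4 by −log10 p and −30.1 by pileup. Within the same gene the internal promoter and this intronic region therefore shifted in opposite directions by fold.

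Ccne1 had 10 and 7 intergenic distal peaks with 6 pairs, of which 3 ranked higher and 3 lower. The pair with the highest control fold, 13221 bp downstream of a start site, went from 2.53 at percentile 89.0 to 2.86 at percentile 71.8. After inactivation the highest fold was that of another downstream pair, 2.96 at percentile 74.8, which stood at percentile 62.1 in control. The pair 22959 bp upstream rose from percentile 8.82 to 49.6, by 40.8 points by fold, 52.4 by −log10 p and 26.4 by pileup, with an overlap of 167 bp. It was the only rise of 25 points or more among the distal pairs of the 8 genes that was also past 25 points by both other measures. The control peak without a partner with the highest fold of all 8 genes, at percentile 81.5, also lay upstream of Ccne1, 28177 bp away.

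Cdk6 had 5 and 4 distal peaks, and its 3 pairs, all intergenic and upstream, ranked higher after inactivation by fold, by −log10 p and by pileup. The strongest, 145032 bp upstream, went from a fold of 3.04 at percentile 96.4 to 5.18 at percentile 99.3, a difference of 2.90 points. The pair 77747 bp upstream rose by 17.6 points, from percentile 72.7 to 90.2, and by 33.0 points by pileup. The pair 127474 bp upstream differed by 3.13 points by fold and 0.88 by −log10 p. By fold the distal pairs of Cdk6 were thus opposite in sign to its promoter, but differences of 2.90 and 3.13 points are small. Of all distal pairs of coding genes, 56.7% ranked lower. After inactivation 1 further peak, at percentile 68.7 and without a partner, lay in an intron of Cdk6, 31854 bp downstream of a start site.

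Cdk4 had no distal peak in either list, in a stretch of 6.31 kb that was nearer to it than to any other coding start site.

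Over all 8 genes the 35 distal pairs comprised 15 that ranked higher and 20 that ranked lower after inactivation, where 56.7% of the 26823 distal pairs of coding genes ranked lower. The median difference was −4.21 points, against −2.81 over all distal pairs. Rises of 25 points or more numbered 3 and falls 3, against 12.4% and 19% of all distal pairs. The 6 were spread over Ccnd1 (3), Ccnd3, Ccne1 and Mycn (1 each), and Myc and Cdk6 had none. Most Myc and Cdk6 pairs stood too high in the control list to rise by 25 points.

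**Figure D4:**
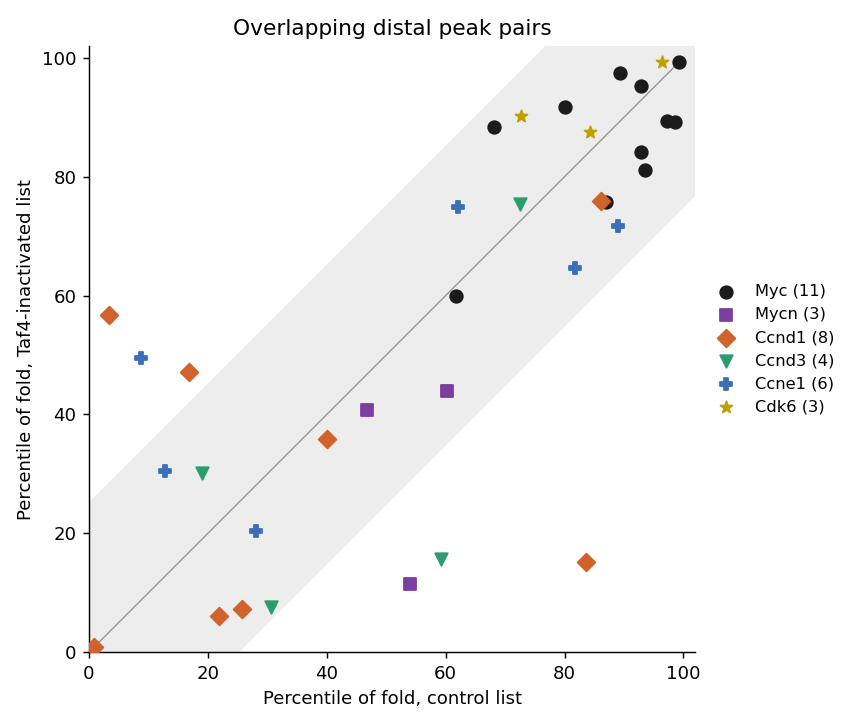
Percentile of fold of the 35 overlapping distal pairs in the control list (horizontal axis) and the Taf4-inactivated list (vertical axis), marked by gene with the number of pairs in brackets. The grey band holds differences of less than 25 points. The 11 Myc and 3 Cdk6 pairs lie inside the band at its upper end, where most could not rise by 25 points. The 6 pairs outside the band belong to Ccnd1, Ccne1, Ccnd3 and Mycn.

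The promoters of other genes of the same network were also open in both lists. All 12 MYC partner and antagonist genes, such as Max and Mnt, had promoter peaks in both, and 1 of them, Mlx, which encodes the dimerisation partner of MLXIP and MLXIPL, shifted by 25 points or more, from percentile 25.7 to 56.6. Of 13 RB and E2F family genes all had peaks in both lists and 12 were paired, with 1 shift of that size, at E2f3 from percentile 87.3 to 61.0. By −log10 p these differences were 1.31 points at Mlx and −6.00 at E2f3, short of 25 points. The compared promoter peaks of E2f2, at percentiles 87.5 and 50.1, did not overlap. All 8 other G1 and S phase genes, among them Ccne2, Cdk2 and the CDK-activating kinase genes Cdk7, Ccnh and Mnat1, had peaks in both lists, and none shifted by 25 points. The median differences of the 3 lists were −1.74, −2.36 and −3.49 points by fold, and that of the 8 MYC and G1 genes was −1.91, against −2.75 over all paired coding promoters.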

How the data were processed

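ATAC-seq was done on 1 control and 1 Taf4-inactivated enteroid culture. The authors demultiplexed reads (bcl2fastq 2.17.1.14 in the submitters' notes), mapped them to mm9 with Bowtie 1.0.0, keeping unique matches, and called broad peaks per library with MACS2 2.1.1. How duplicates and mitochondrial reads were treated is not given in the sources used here. The deposited score is a whole number from the −log10 q. The deposited fold is a ratio of pileup to local background, and the deposited −log10 p and −log10 q are averages over each peak.

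Positions were made 1-based and assigned with GENCODE start sites on NCBIM37 (mm9), whose chromosomes held all peaks. Percentiles, overlaps, mutually best pairs and exact Clopper-Pearson intervals were computed in Python 3.11.15 with numpy 2.4.6, pandas 2.3.3 and scipy 1.17.1, and figures with matplotlib 3.10.9. Relative depth was taken from the solved background as its 5th percentile over the narrowest 10% of peaks. The 6 steps were tested on simulated data and recovered the known answers. The simulated fold and p were single values made with the formula that was solved, not averages over a peak. The error of the solved background on averaged values was therefore not tested.

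Named by rule were the 8 genes, the promoter peak with the highest fold in each list, each gene's distal pair and unpartnered distal peak with the highest fold, and the 3 distal pairs with the largest shift each way. Other distal pairs were chosen for mention after their values were seen. Alternatives changed the q threshold, overlap, distances, start site window and ranking value. Genes, lists, patterns and thresholds were chosen with earlier results of these data known.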

Additional observations from a re-analysis of the deposited data

How the results depend on the processing

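No paired analysis was possible because each genotype had a single library, which also meant that none could be left out. With a −log10 q of at least 2 in both lists, the 8 genes held 30 control and 28 Taf4-inactivated distal peaks, and 36.7% and 28.6% had no partner, against 53.5% and 55.5% over all coding genes. Requiring an overlap of 50% of both peaks, 75.3% of control and 61.7% of Taf4-inactivated distal peaks had no partner, against 77.9% and 71.1% over all coding genes. Of the 18 distal pairs left by this rule, 1 was 25 points or more higher and 1 lower, against 11.1% and 17.2% of all. No value could be had by this rule for the Myc and Ccnd1 promoters. Of the promoters, 0 rose and 1 (Mycn) fell by 25 points when ranked by −log10 p, 0 rose and 1 (Cdk6) fell when ranked among promoter peaks only, and 0 and 0 when ranked by solved pileup, where the differences of Ccnd3 (−2.16) and Cdk4 (−1.33) changed sign. Distal pairs 25 points lower numbered 5 by −log10 p, where 21.8% of all distal pairs were. Ranking within deciles of width left 2 promoters higher and 2 lower. Ranking by solved pileup and within deciles of width was chosen after seeing the data. A distance of 100 kb, the gene body in place of start sites, start site windows of 2 kb or 500 bp, and a gap of 500 bp moved none of the counts or shares by more than the criterion used (1.5 times for a count, the 95% interval for a share). The cause of these changes was not tested. Peaks near the threshold of detection depend on depth, estimated as 60.5% of control after inactivation.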
